A study of Mus musculus with 16 samples.

Results

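The integrated stress response regulators were read across 16 RNA-seq libraries of mIMCD3 cells, an epithelial line derived from collecting duct of the inner medulla of the mouse kidney. They are 10 genes, *Atf4*, *Atf5*, *Ddit3*, *Trib3*, *Ppp1r15a*, *Chac1*, *Sesn2*, *Ddit4*, *Gdf15* and *Fgf21*, chosen by name as the factor ATF4, its feedback regulators and its best known effectors, out of 55367 gene symbols listed in the count files. WT cells received either 10 µM SFN (sulforaphane, an activator of Nrf2) or its solvent DMSO as a 5 h pretreatment and were then left isosmotic or kept under hyperosmotic stress for 1 h or 6 h. Nrf2-/- cells were pretreated with SFN and were isosmotic or stressed for 1 h, which gave 8 groups of 2 biological replicates each. The titles, source and cell line labels all give mIMCD3, while the extraction protocol in the labels speaks of primary TEC, and this difference could not be settled. The 1 h stress was at 600 mOsm, and the osmolality of the 6 h medium is not given in the labels. Nrf2-/- cells were made by lentiviral Cas9 and a guide RNA with antibiotic selection, and whether they are 1 clone is not stated in the sources used here. Nrf2-/- cells without SFN were not analysed here, so a difference between genotypes holds for SFN-treated cells and cannot be told apart from other differences between the cell lines.

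In the integrated stress response, kinases that sense different stresses phosphorylate the initiation factor eIF2, which lowers protein synthesis overall while the mRNA of *Atf4* is translated more. ATF4 then drives genes for amino acid synthesis and transport, aminoacyl-tRNA synthetases, and a layer of regulators that end the response or turn it towards cell death. Since ATF4 is controlled mainly by translation, the level of its mRNA is not a measure of its activity. Cells of the renal medulla live at high osmolality, where loss of water can perturb protein synthesis.

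All 10 genes lie on mouse chromosomes 2, 4, 7, 8, 10 and 15 (GRCm38, the assembly also called mm10), and 3 of them, *Atf5*, *Ppp1r15a* and *Fgf21*, lie on chromosome 7. *Chac1* spans chr2:119351229-119354381 and *Trib3* chr2:152337422-152344032, *Sesn2* spans chr4:132492032-132510501, and *Ddit4* lies at chr10:59949669-59951834. The promoters, from 250 bases before to 50 bases after each start in RefSeq on GRCm38.p6, were searched on both strands for the C/EBP-ATF response element TGATGNAA that ATF4 dimers bind, the cyclic AMP response element TGACGTCA, the endoplasmic reticulum stress element, the antioxidant response element TGACNNNGC that Nrf2 binds and the tonicity element that NFAT5 binds. The C/EBP-ATF element was found at *Chac1*, *Fgf21* and *Trib3* and in 3.91% of all 32544 promoters, the antioxidant element at *Sesn2* and *Ppp1r15a* and in 12.4%, and the cyclic AMP element at *Ppp1r15a* and in 1.8%. *Fgf21* alone among the 10 genes also held the tonicity element, which 4.97% of promoters held, and the endoplasmic reticulum stress element was at none of them. No element was found in these windows at *Atf4*, *Ddit3*, *Atf5*, *Gdf15* or *Ddit4*. The 30-base sites below are shown because they link 5 of the regulators to ATF4, Nrf2 or cyclic AMP elements by sequence, which is a description of these windows and not of binding. Each reads 5′ to 3′ on the strand of its gene, with the element in capitals.
Chac1 C/EBP-ATF element, chr2:119351038-119351067, plus strand: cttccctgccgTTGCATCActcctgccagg
Trib3 C/EBP-ATF element, chr2:152344028-152344057, minus strand: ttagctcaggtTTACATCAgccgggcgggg
Fgf21 C/EBP-ATF element, chr7:45615611-45615640, minus strand: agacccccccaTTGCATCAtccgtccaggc
Sesn2 antioxidant element, chr4:132510473-132510502, minus strand: cgcagcgggcTGACAGAGCcgggcgagcgc
Ppp1r15a cyclic AMP element, chr7:45526262-45526291, minus strand: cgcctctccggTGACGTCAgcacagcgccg
In *Chac1* and *Fgf21* the C/EBP-ATF element reads the same 8 letters, and all 3 C/EBP-ATF elements lie on the strand opposite to the gene.

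The libraries held 34484296 to 50774875 counts. The counts of each gene are given as CPM, counts relative to the library total after scaling by TMM, and levels are compared between genes only as CPM per kb of exon. The targeted gene *Nfe2l2*, which encodes Nrf2, had 386 to 433 counts in the 4 Nrf2-/- libraries and 2496 to 4209 in the SFN-treated isosmotic WT libraries. The replicates of Nrf2-/- cells after 1 h stood apart from each other, with a biological coefficient of variation of 0.348, against 0.0393 to 0.128 in the other 7 groups. Of all genes tested, 21.8% differed over 2-fold between these libraries, against 9.62% to 12.1% in the other groups. Both carried the 1 h response: the median of the 748 genes that rose over 2-fold in WT cells with either pretreatment was 2.71 and 2.85 on the log2 scale above isosmotic Nrf2-/- cells. Calls that rest on these libraries are given with and without each of them, and since all groups share 1 estimate of the spread, changes of calls on the regulators in WT cells without both are given as well. Of 12 markers of epithelium and collecting duct, 9 were at 1 CPM or more in every library, while *Aqp2* and *Avpr2*, which define principal cells, were below 1 CPM in every library. Of 12 markers of other kidney cell types, 7 were below 1 CPM in every library and their summed level was 1.99 to 29.0 CPM.

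**Figure D1:**
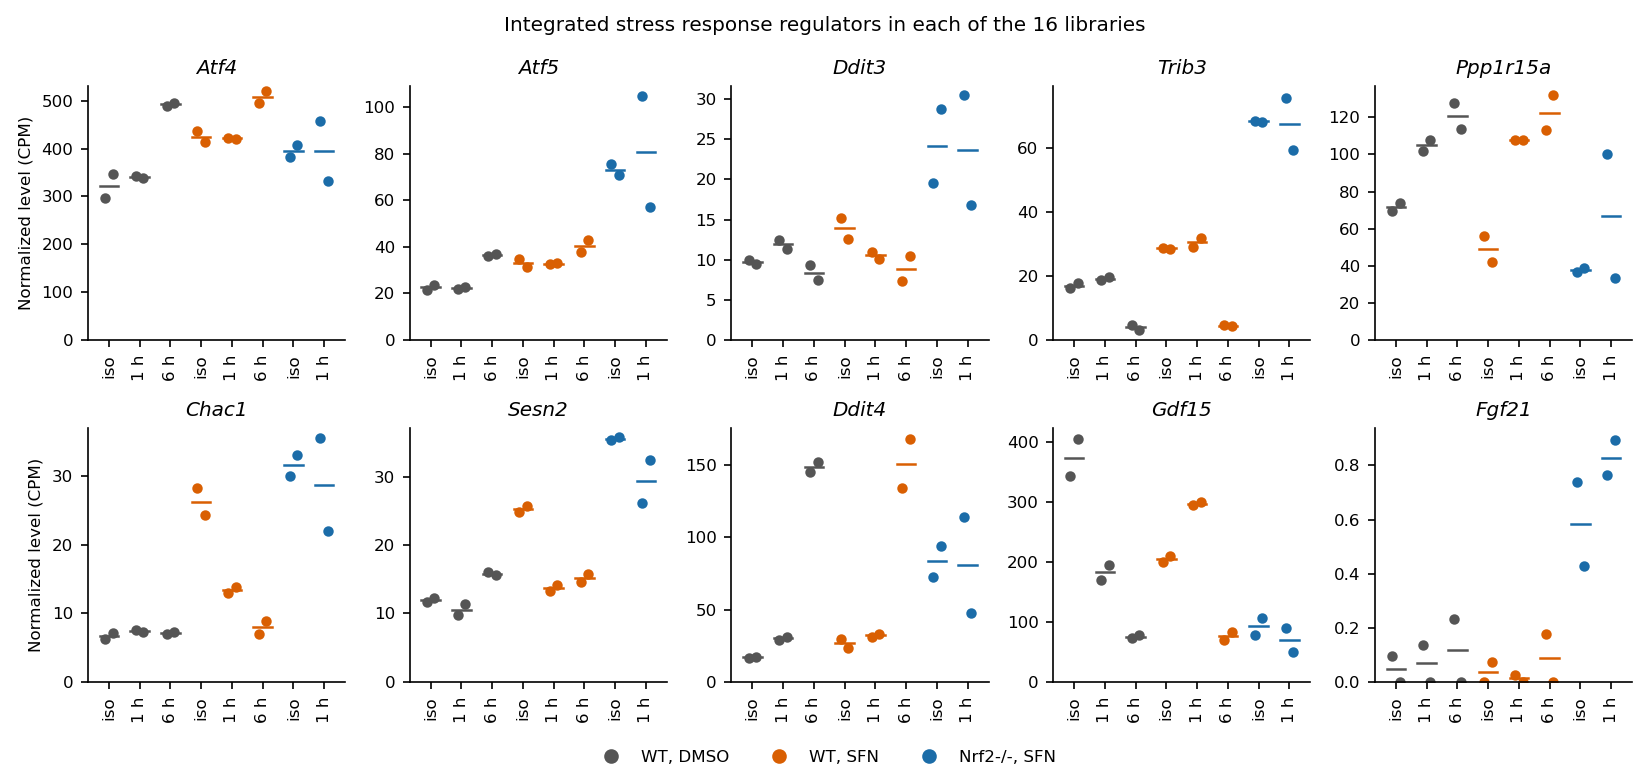
Normalized level (CPM, linear axes from 0) of each regulator in every library; points are the 2 libraries of a group, bars their mean, and groups are isosmotic (iso) or after 1 h or 6 h of hyperosmotic stress. *Ddit4* is highest after 6 h, *Trib3* and *Gdf15* are lowest or near lowest there, and the 2 Nrf2-/- 1 h libraries differ most for *Ppp1r15a* and *Ddit4*.

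In isosmotic WT cells given DMSO, the 10 genes covered a wide range of levels. *Gdf15*, which encodes a secreted stress cytokine, and *Atf4* were the most abundant at 202 ± 24.1 and 136 ± 15.5 CPM per kb (SD, n = 2). *Ppp1r15a* followed at 24.4 ± 1.01 CPM per kb, and *Atf5*, *Ddit4*, *Trib3*, *Ddit3*, *Chac1* and *Sesn2* lay between 3.43 and 11.3 CPM per kb. *Fgf21*, which encodes a secreted metabolic hormone, had 0 to 8 counts in the 12 WT libraries, with 6 of them at 0. It passed the filter on low counts only through the Nrf2-/- libraries, the only ones in which it reached 10 counts, so its differences in WT cells are not interpretable at this depth. Small parts of 3 genes are shared with neighbours on the other strand: 3.97% of the exons of *Ddit3* with *Mars1*, 4.11% of those of *Atf5* with *Nup62* and 0.409% of those of *Ppp1r15a* with *Tulp2*. Whether strand was used in counting is not given in the sources used here, so reads there cannot be assigned to 1 gene.

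The comparison of SFN with DMSO in isosmotic WT cells asks what the compound did before any stress. SFN raised *Chac1* 3.94-fold, *Sesn2* 2.12-fold and *Trib3* 1.69-fold and lowered *Gdf15* 1.83-fold. These were 4 of the 10 genes, 3 higher and 1 lower, where 2.84% of the 19509 genes tested passed (edgeR quasi-likelihood test, Benjamini-Hochberg adjusted p under 0.05). Epithelial markers moved in the same comparison: 4 of 11 tested were lower and none higher, *Cdh1* (-0.66), *Krt7* (-0.98), *Krt18* (-0.56) and *Krt8* (-0.42), and the summed level of the list was 2120 to 2290 CPM with SFN against 2820 to 3160 CPM with DMSO. The summed level of markers of other cell types was 11.2 to 12.4 against 8.49 to 10.5 CPM, and the part of either in these results was not tested.

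*Chac1* encodes an enzyme that degrades glutathione. Its level was 6.22 and 7.12 CPM with DMSO and 28.3 and 24.3 CPM with SFN. Both SFN libraries lay above both DMSO libraries, with a log2 fold change of 1.98 ± 0.20 (SE) and an adjusted p of 4.21e-05. *Sesn2*, an inhibitor of mTORC1, was at 11.6 and 12.2 CPM with DMSO and at 24.8 and 25.7 CPM with SFN. Again the groups did not overlap, and the log2 fold change was 1.08 ± 0.13 (adjusted p = 0.000232). *Trib3*, a pseudokinase that binds ATF4 and CHOP and restrains them, was at 16.2 and 17.8 CPM with DMSO and at 28.9 and 28.4 CPM with SFN. Its log2 fold change was 0.76 ± 0.15 with an adjusted p of 0.0148. Leaving out any 1 of the 4 libraries left its fold change at 0.69 to 0.83 with adjusted p of 0.0818 to 0.122. *Gdf15* ran the other way, at 342 and 405 CPM with DMSO against 199 and 209 CPM with SFN. Both SFN libraries were lower, and the log2 fold change was -0.87 ± 0.22 with an adjusted p of 0.048, which rose above 0.05 without any 1 of these 4 libraries (0.0975 to 0.368), with total counts (0.0761) and with a replicate block (0.0676).

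The mRNA of *Atf4* itself was 296 and 348 CPM with DMSO and 437 and 414 CPM with SFN. The SFN libraries were higher, yet the log2 fold change of 0.40 ± 0.13 did not pass (adjusted p = 0.123). *Atf5*, a related factor also controlled by translation, gave 0.55 ± 0.20 (adjusted p = 0.181), *Ddit3*, which encodes the factor CHOP, 0.52 ± 0.26 (0.359), and *Ddit4*, an mTORC1 inhibitor also called REDD1, 0.64 ± 0.30 (0.339). *Ppp1r15a*, which encodes the phosphatase subunit GADD34 that removes the phosphate from eIF2, gave -0.55 ± 0.36 (0.50). Without the Nrf2-/- 1 h libraries, 8 of the 10 genes passed, 6 higher and 2 lower, where 14.5% of genes passed. The genes added were *Atf4*, *Atf5* and *Ddit4* on the higher side and *Ppp1r15a* on the lower side, with adjusted p of 0.000336 to 0.00297.

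After 1 h of hyperosmotic stress, SFN changed none of the 10 genes by the same test, where 0.0923% of all genes passed. At unadjusted p under 0.05 there were 6, and DESeq2 called 2, *Trib3* and *Chac1*, where it called 0.261% of genes. *Trib3* was at 18.6 and 19.8 CPM with DMSO and at 29.2 and 31.9 CPM with SFN, a log2 fold change of 0.67 ± 0.15 (adjusted p = 0.325). *Chac1* was at 7.56 and 7.34 CPM with DMSO and at 13.0 and 13.8 CPM with SFN, a log2 fold change of 0.85 ± 0.20 (adjusted p = 0.351). In both genes the fold change was over 3 times its standard error. The groups did not overlap in either, but nor did they in *Ddit3*, at a log2 fold change of -0.17 ± 0.26. Non-overlap of pairs of libraries thus does not set *Trib3* and *Chac1* apart. *Gdf15* was at 170 and 195 CPM with DMSO and at 295 and 299 CPM with SFN, a log2 fold change of 0.70 ± 0.22 (adjusted p = 0.99). Here SFN libraries were the higher ones, the reverse of the isosmotic order. Without the Nrf2-/- 1 h libraries, *Trib3*, *Chac1*, *Atf5* and *Gdf15* passed, all higher with SFN, with adjusted p of 0.00136 to 0.0231, where 0.479% of genes passed.

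After 6 h, no regulator was called between SFN and DMSO cells. None passed the test, where 0.041% of genes passed, or without the Nrf2-/- 1 h libraries, where 0.213% did, and none had an unadjusted p under 0.05. DESeq2 called 0 as well, where it called 0.118% of all genes. The log2 fold changes of the 9 genes other than *Fgf21* lay between -0.05 and 0.16. *Chac1* was at 6.95 and 7.26 CPM with DMSO and at 6.93 and 8.94 CPM with SFN, and *Sesn2* at 16 and 15.6 CPM against 14.6 and 15.8 CPM.

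**Figure D2:**
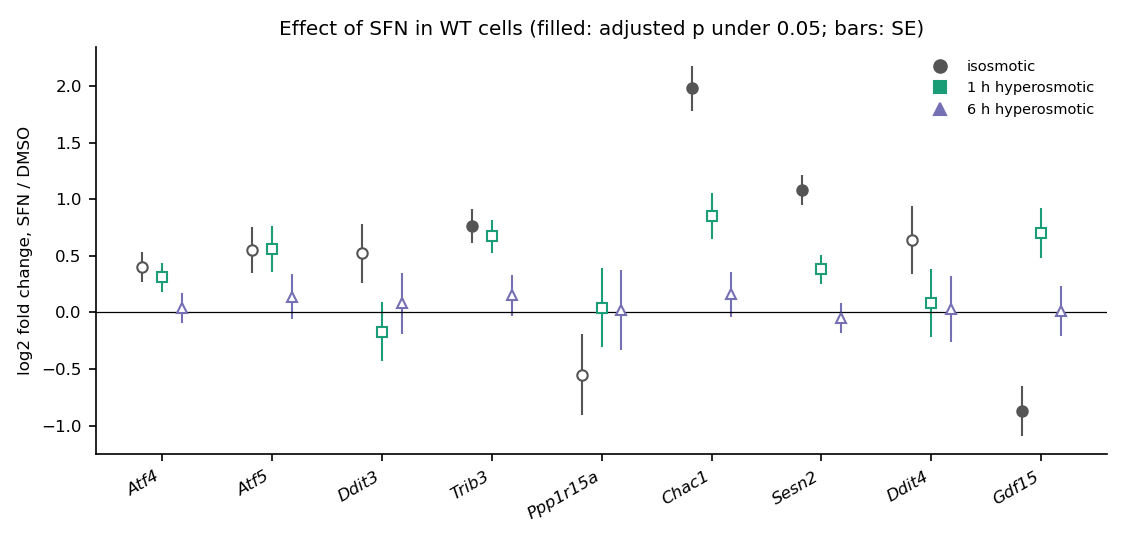
log2 fold change of SFN over DMSO in WT cells for 9 regulators (*Fgf21* left out for its low counts), isosmotic, 1 h stressed and 6 h stressed; bars are 1 standard error and filled symbols passed at adjusted p under 0.05. *Chac1* goes from 1.98 through 0.85 to 0.16, and *Gdf15* from -0.87 to 0.70 and 0.01.

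The difference between SFN effects was tested directly. Between 6 h and isosmotic cells it passed for *Chac1*, at -1.82 ± 0.28 (adjusted p = 0.00471), and for *Sesn2*, at -1.13 ± 0.19 (0.0069), where 0.759% of genes passed. The *Sesn2* difference had an adjusted p of 0.0585 without 6 h SFN replicate 1. Between 1 h and isosmotic cells it passed for *Gdf15* alone, at 1.57 ± 0.30 (adjusted p = 0.0355), where 0.559% of genes passed. That call was lost without any 1 of the 8 libraries, at differences of 1.44 to 1.69 and adjusted p of 0.0767 to 0.236. For *Chac1* and *Sesn2*, the differences between 1 h and isosmotic cells were -1.13 ± 0.28 and -0.70 ± 0.19 with adjusted p of 0.126 and 0.177. Without the Nrf2-/- 1 h libraries these became 0.000662 and 0.0145, where 3.03% of genes passed. *Ppp1r15a* passed as well in that fit, at 0.59 (adjusted p = 0.0242). Between 6 h and isosmotic cells, 5 regulators passed without those libraries, where 3.96% of genes did, *Gdf15* (0.88) and *Ppp1r15a* (0.56) on the higher side and *Atf4* (-0.36) on the lower being added.

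The stress comparisons ask how the regulators moved with hyperosmolality itself. In DMSO cells 1 h of stress lowered *Gdf15* 2.04-fold, from 342 and 405 CPM to 170 and 195 CPM (log2 fold change -1.03 ± 0.22, adjusted p = 0.00739), where 11.2% of genes passed. No other regulator passed. Adjusted p for *Gdf15* was 0.0772 without isosmotic DMSO replicate 2 and 0.0848 without 1 h DMSO replicate 1. *Ddit4* was at 16.8 and 17.2 CPM before and at 29.1 and 31.3 CPM after 1 h, without overlap (0.83 ± 0.30, adjusted p = 0.112). *Ppp1r15a* went from 69.6 and 73.8 CPM to 102 and 108 CPM (0.55 ± 0.35, adjusted p = 0.398). Both passed as higher without the Nrf2-/- 1 h libraries, with adjusted p of 0.000189 and 0.000527, where 22.1% of genes passed. *Atf4*, *Atf5*, *Ddit3*, *Trib3*, *Chac1* and *Sesn2* had log2 fold changes between -0.18 and 0.30 at this time.

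After 6 h in DMSO cells the regulators had moved apart. *Ddit4*, *Atf5*, *Atf4* and *Sesn2* rose, and *Trib3* and *Gdf15* fell, which is 6 of the 10 genes where 45.9% of all genes passed. With total counts in place of TMM, 2 rose and 2 fell, where 49.3% of all genes passed. *Sesn2* (adjusted p = 0.177) and *Atf5* (0.0518) no longer passed, and the median of all genes was then -0.12 in place of 0.048. *Ddit4* reached 145 and 152 CPM from 16.8 and 17.2 CPM, 8.71-fold, a log2 fold change of 3.12 ± 0.32 (adjusted p = 8.21e-06). It was the largest change among the 10 genes in WT cells. *Trib3* fell to 4.72 and 3.15 CPM, 4.3-fold lower (-2.11 ± 0.17, adjusted p = 2.63e-07). *Gdf15* fell to 72.9 and 77.8 CPM, 4.96-fold lower (-2.31 ± 0.23, adjusted p = 2.21e-06). *Atf4* was at 489 and 496 CPM, above its isosmotic 296 and 348 CPM (0.61 ± 0.13, adjusted p = 0.00122). *Atf5*, at 36.1 and 37.1 CPM, was 1.62-fold higher (adjusted p = 0.00922, or 0.0745 without isosmotic DMSO replicate 1), and *Sesn2* 1.32-fold higher (0.0213, or 0.0706 to 0.122 without any 1 of the 4 libraries).

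*Ddit3* and *Chac1* did not pass after 6 h of stress. *Ddit3* was at 9.36 and 7.41 CPM against 9.93 and 9.44 CPM (-0.21 ± 0.26, adjusted p = 0.558), and *Chac1* at 6.95 and 7.26 CPM against 6.22 and 7.12 CPM (0.09 ± 0.20, 0.753). Neither gene followed *Ddit4* upwards. *Ppp1r15a* was at 128 and 114 CPM against 69.6 and 73.8 CPM (0.76 ± 0.35, adjusted p = 0.106), and passed without the Nrf2-/- 1 h libraries (2.42e-06, where 56.7% of genes passed). The epithelial markers moved at 6 h as well, and of 11 tested 6 rose and 2 fell, where 45.9% of all genes passed. Their summed level was 4660 to 4710 CPM against 2820 to 3160 CPM. Among them *Pax2*, a nephron and collecting duct factor, had a mean of 1140 against 119 CPM. The summed level of markers of other cell types was 26.2 to 29.0 against 8.49 to 10.5 CPM, and their part in the results was not tested. In bulk cultures, fewer cells and less RNA per cell cannot be told apart. All 8 osmotic stress genes of the NFAT5 list rose at 6 h with a median log2 fold change of 4.07, where 45.9% of all genes passed. At 1 h 3 of 8 rose, where 11.2% of all genes passed.

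In SFN cells, 1 h of stress lowered the genes that SFN had raised most. *Chac1* fell from 28.3 and 24.3 CPM to 13.0 and 13.8 CPM (-0.97 ± 0.19, adjusted p = 0.00537), and *Sesn2* from 24.8 and 25.7 CPM to 13.3 and 14.2 CPM (-0.88 ± 0.13, 0.000705), where 9.52% of genes passed. The call of *Chac1* was lost without isosmotic SFN replicate 1 (adjusted p = 0.0507) or 1 h SFN replicate 1 (0.0584). *Ppp1r15a* was at 56.2 and 42.0 CPM before and at 108 CPM in both 1 h libraries (1.14 ± 0.36, adjusted p = 0.0751, or 5.18e-08 without the Nrf2-/- 1 h libraries, where 17.5% of genes passed). *Gdf15*, which fell in DMSO cells, was at 199 and 209 CPM before and at 295 and 299 CPM after 1 h. Its log2 fold change was 0.54 ± 0.21 (adjusted p = 0.149, or 0.00992 without the Nrf2-/- 1 h libraries). *Trib3* did not follow *Chac1* and *Sesn2*, at 29.2 and 31.9 CPM after 1 h against 28.9 and 28.4 CPM before. After 6 h, 6 of the 10 genes passed, where 47.6% of all genes passed. *Ddit4* rose 5.69-fold and *Ppp1r15a* 2.49-fold, while *Trib3* fell 6.56-fold, *Chac1* 3.31-fold, *Gdf15* 2.69-fold and *Sesn2* 1.66-fold. *Trib3* was then at 4.49 and 4.24 CPM. These isosmotic SFN libraries also serve the SFN comparison above, so both comparisons share samples. The *Ppp1r15a* call was lost without isosmotic SFN replicate 2 (adjusted p = 0.0982) or 6 h SFN replicate 2 (0.062). In all, 9 regulators passed without the Nrf2-/- 1 h libraries, where 58.4% of genes did, with *Atf4* (0.23) and *Atf5* (0.27) added as higher and *Ddit3* (-0.67) as lower.

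**Figure D3:**
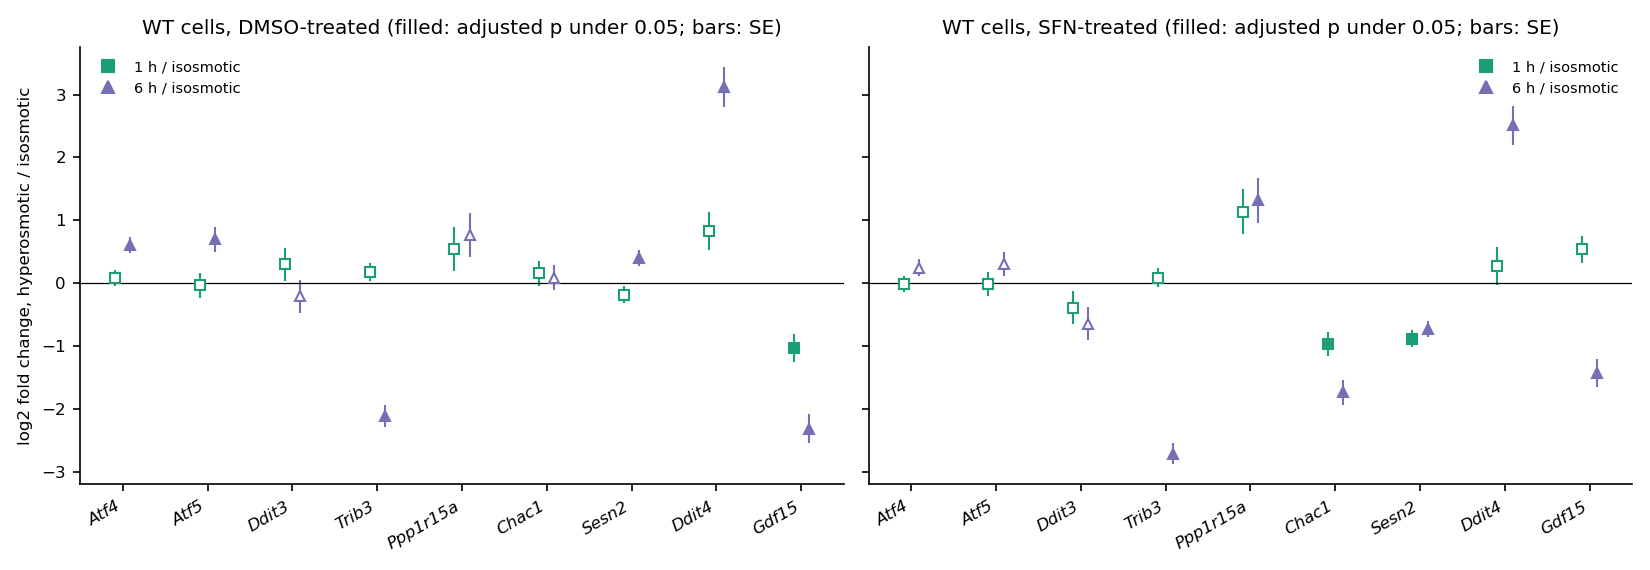
log2 fold change of 1 h and 6 h of hyperosmotic stress over isosmotic in WT cells given DMSO (left) or SFN (right), for 9 regulators; bars are 1 standard error and filled symbols passed at adjusted p under 0.05. *Ddit4* is far above 0 and *Trib3* and *Gdf15* far below at 6 h in both panels, while *Chac1* and *Sesn2* lie below 0 at 6 h only in SFN cells.

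Between 1 h and 6 h of stress in DMSO cells, 6 of the 10 genes passed, where 42.4% of all genes passed. *Ddit4* rose 4.91-fold, *Atf5* 1.65-fold, *Sesn2* 1.5-fold and *Atf4* 1.45-fold, and *Trib3* fell 4.86-fold and *Gdf15* 2.42-fold. The calls of *Sesn2* (adjusted p = 0.0536) and *Atf5* (0.0598) were lost without 1 h DMSO replicate 1. With total counts, 2 rose and 3 fell, where 46.7% of all genes passed and their median was -0.22. *Atf4* (adjusted p = 0.0718) and *Atf5* (0.0597) dropped out and *Ddit3* was added on the lower side. *Ddit3* was added as lower without the Nrf2-/- 1 h libraries (-0.53, adjusted p = 0.0178), where 53.5% of genes passed. In SFN cells 4 passed, where 42.6% of all genes did: *Ddit4* rose 4.71-fold, and *Trib3*, *Gdf15* and *Chac1* fell 6.99-fold, 3.91-fold and 1.69-fold. The *Chac1* call was lost without 6 h SFN replicate 1 (adjusted p = 0.084). *Atf4* (0.24) and *Atf5* (0.28) were added as higher without the Nrf2-/- 1 h libraries, where 53.9% of genes passed.

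The comparison of Nrf2-/- with WT cells, both given SFN, asks which levels differed in cells without Nrf2. In isosmotic cells, 6 of the 9 genes other than *Fgf21* passed, where 34.1% of all genes did: *Trib3*, *Atf5*, *Ddit4*, *Ddit3* and *Sesn2* were higher and *Gdf15* was lower in Nrf2-/- cells. *Trib3* was at 68.6 and 68.3 CPM against 28.9 and 28.4 CPM in WT cells, 2.39-fold higher (1.26 ± 0.15, adjusted p = 1.58e-05). *Atf5* was at 75.7 and 70.7 CPM against 34.6 and 31.3 CPM, 2.22-fold higher (1.15 ± 0.20, adjusted p = 0.000331). *Ddit4* was at 72.8 and 93.8 CPM against 29.6 and 23.5 CPM, 3.14-fold higher (1.65 ± 0.30, adjusted p = 0.00113). In these 3 genes the lowest Nrf2-/- library was over 2-fold above the highest WT library. *Ddit3* was at 19.6 and 28.8 CPM against 15.2 and 12.6 CPM (0.80 ± 0.26, adjusted p = 0.0241), a call lost without either WT library (0.0575 and 0.157) or without Nrf2-/- replicate 2 (0.269). *Sesn2* was at 35.3 and 35.8 CPM against 24.8 and 25.7 CPM, 1.41-fold higher (adjusted p = 0.00771, or 0.0697 without WT replicate 1 and 0.0508 without Nrf2-/- replicate 2). *Gdf15* was at 78.3 and 107 CPM against 199 and 209 CPM, 2.21-fold lower (-1.14 ± 0.22, adjusted p = 0.00101).

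*Atf4* mRNA was not called between genotypes, at 383 and 407 CPM in Nrf2-/- and 437 and 414 CPM in WT cells (-0.11 ± 0.13, adjusted p = 0.565). *Chac1*, the gene that SFN raised most in WT cells, was at 30.1 and 33.1 CPM in Nrf2-/- and at 28.3 and 24.3 CPM in WT cells given SFN (0.27 ± 0.19, adjusted p = 0.308). The level in DMSO-treated WT cells was 6.22 and 7.12 CPM. Whether SFN raised *Chac1* in Nrf2-/- cells was not tested, as their level without SFN was not analysed here. *Ppp1r15a* gave -0.38 ± 0.36 (adjusted p = 0.457), and passed as lower without the Nrf2-/- 1 h libraries (-0.36, 0.0074), where 46.4% of genes passed. The Nrf2-/- cells also differed in markers, in both directions. Of 11 epithelial markers tested, 3 were higher and 4 lower, where 34.1% of all genes passed. The summed level of that list was 2890 to 3120 CPM in Nrf2-/- against 2120 to 2290 CPM in WT cells. Its most abundant gene was *Krt7* in Nrf2-/- cells, at a mean of 904 CPM, and *Krt8* in WT cells, at 788 CPM. Among those lower, *Pax2* had a mean of 26.9 against 142 CPM and the cadherin *Cdh16* 20.5 against 200 CPM. Of 6 tested markers of other cell types, 1 was higher and 2 were lower. *Lrp2*, a proximal tubule receptor, was at 0.169 against 6.86 CPM, and the part of all these markers in the results was not tested. Of 8 Nrf2 targets, 7 were lower in Nrf2-/- cells and *Slc7a11*, a cystine transporter that ATF4 also drives, was higher at 0.84 on the log2 scale.

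After 1 h of stress, 7 of the 9 genes other than *Fgf21* differed between genotypes, where 31.5% of all genes did. *Atf5* (2.47-fold), *Ddit4* (2.53-fold), *Ddit3* (2.24-fold), *Trib3* (2.22-fold), *Chac1* (2.15-fold) and *Sesn2* (2.13-fold) were higher in Nrf2-/- cells and *Gdf15* was 4.26-fold lower. *Trib3* was at 75.9 and 59.5 CPM against 29.2 and 31.9 CPM in WT cells (1.15 ± 0.15, adjusted p = 4.23e-05), *Sesn2* at 26.2 and 32.4 CPM against 13.3 and 14.2 CPM (1.09 ± 0.13, 1.55e-05), and *Gdf15* at 90.3 and 49.4 CPM against 295 and 299 CPM (-2.09 ± 0.22, 7.24e-06). *Atf5* was at 105 and 57.0 CPM against 32.4 and 32.9 CPM, and *Ddit4* at 114 and 47.4 CPM against 31.0 and 33.1 CPM, so that the size of both rested on which Nrf2-/- library was read. Without Nrf2-/- 1 h replicate 1, *Atf5* was at 0.81, *Ddit4* at 0.58 and *Trib3* at 0.97 on the log2 scale, and without replicate 2 at 1.68, 1.84 and 1.31. *Ddit3* was at 0.68 and 1.53, *Chac1* at 0.73 and 1.41, *Sesn2* at 1.25 and 0.93 and *Gdf15* at -2.58 and -1.72 in the same order. All 7 genes passed in either case, at 42% and 28.8% of all genes, and without replicate 1 *Atf4* (-0.33, adjusted p = 0.00335) and *Ppp1r15a* (-1.69, 1.08e-10) passed as lower too. Fitted on these 4 libraries alone, 3 of these 7 genes passed, *Trib3*, *Sesn2* and *Gdf15*, where 10.1% of genes did, and *Ddit4* had an adjusted p of 0.0509 in the fit of all libraries without WT 1 h replicate 1.

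*Fgf21* was low in every library. It had 26 and 16 counts in isosmotic and 27 and 31 counts in 1 h Nrf2-/- libraries, against 0 and 4 and 1 and 0 in WT cells given SFN. The Nrf2-/- libraries lay above the WT libraries at both times. After scaling by TMM, the counts pooled over the libraries of a group were 13.2 times the WT level when isosmotic (exact 95% interval 4.8 to 50.8). After 1 h they were 65.0 times the WT level (11.2 to 2610). These intervals cover counting error only, not the spread between libraries, and are not read as a test of genotype. They treat every count as independent. Of counts from 1 to 10, 58.0% to 68.5% per library were even, so the intervals may be too narrow, which was not tested. Since *Fgf21* entered the fit only through the Nrf2-/- libraries, no test is given for it, and it is left out of the counts of calls between genotypes. Even in Nrf2-/- cells *Fgf21* was below 1 CPM in every library.

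**Figure D4:**
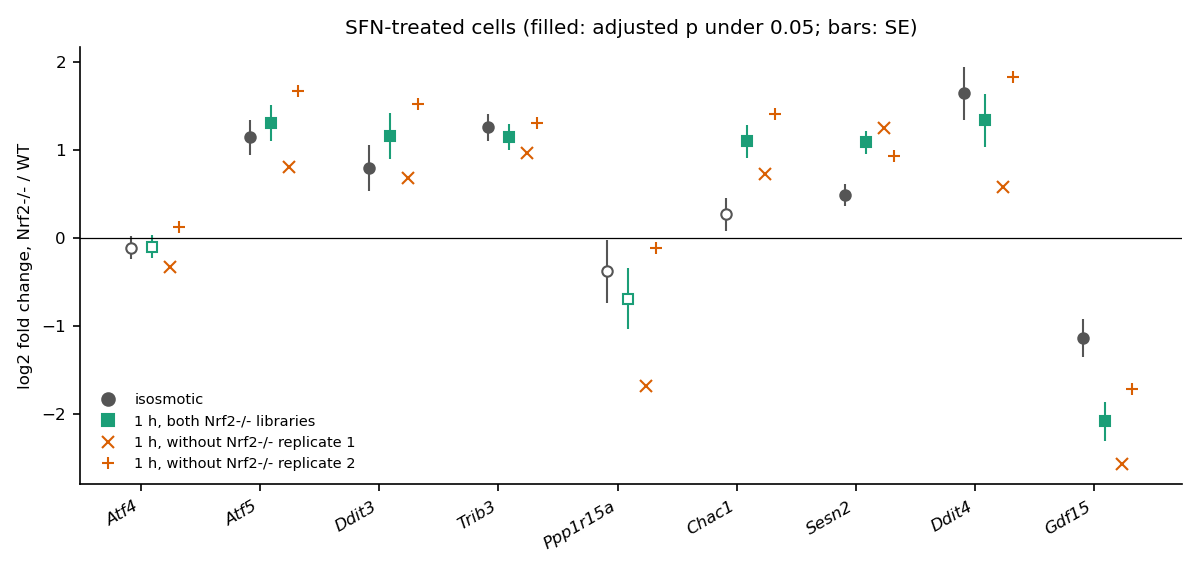
log2 fold change of Nrf2-/- over WT cells, both given SFN, for 9 regulators; circles are isosmotic and squares 1 h of stress with 1 standard error, filled where adjusted p was under 0.05, and the crosses repeat the 1 h value without either Nrf2-/- 1 h library. *Trib3*, *Atf5*, *Ddit4*, *Ddit3* and *Sesn2* lie above 0 and *Gdf15* below 0 in every case, whereas *Ppp1r15a* at 1 h ranges from -1.69 to -0.11.

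In Nrf2-/- cells, 1 h of stress changed none of the 10 genes in the test with both libraries, where 7.17% of all genes passed, while 2 had an unadjusted p under 0.05 and DESeq2 called 0, where it called 10.3% of all genes. The Nrf2-/- 1 h libraries read in opposite directions. *Ppp1r15a* was at 36.4 and 38.9 CPM when isosmotic and at 100 and 33.2 CPM after 1 h, so that 1 library was above and the other below. *Ddit4* was at 72.8 and 93.8 CPM before and at 114 and 47.4 CPM after. Without replicate 1, *Ddit4* (-0.82), *Gdf15* (-0.91), *Chac1* (-0.53), *Atf5* (-0.37) and *Atf4* (-0.26) passed as lower, where 23.9% of genes passed. Without replicate 2, *Ppp1r15a* (1.41), *Atf5* (0.51) and *Ddit4* (0.46) passed as higher and *Sesn2* (-0.44) as lower, where 21.6% passed. *Atf5* and *Ddit4* thus took opposite directions with the library read. *Sesn2* lay below its isosmotic level in both libraries, at 26.2 and 32.4 CPM against 35.3 and 35.8 CPM (-0.28 ± 0.13, adjusted p = 0.231). The difference of the 1 h stress effect between genotypes passed for none of the 10 genes, where 0.123% of all genes passed, with 3 at unadjusted p under 0.05 and 0 by DESeq2, which called 0.656% of all genes. This too turned on the library read. Without replicate 1 it passed for *Ppp1r15a* (-1.32, adjusted p = 1.64e-05), *Gdf15* (-1.45, 0.00106), *Ddit4* (-1.09, 0.00149) and *Sesn2* (0.74, 0.00588), where 9.75% of genes passed. Without replicate 2 it passed for *Chac1* (1.14, 0.000807) and *Atf5* (0.53, 0.0265), where 5.82% did.

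Other genes listed by name as ATF4 targets were read in the same comparisons, as 39 genes of amino acid synthesis, amino acid transport, tRNA charging and related functions. All 39 passed the filter on low counts, and whether ATF4 drives them in these cells was not tested. In isosmotic Nrf2-/- against WT cells, 24 were higher and 1 lower where 34.1% of all genes passed in either direction, and their median log2 fold change was 0.48, against 0.00 for all genes. The smallest adjusted p were those of *Gpt2* (2.16), an alanine aminotransferase, *Ndrg1* (2.21), *Stc2* (3.38) and *Cth* (2.57), the cystathionine lyase, and the one lower gene was *Cbs* (-2.40). *Asns*, the asparagine synthetase, was at 429 and 406 CPM in Nrf2-/- and at 133 and 145 CPM in WT cells. After 1 h of stress, 28 were higher and 1 lower with a median of 0.72, where 31.5% of all genes passed. Without Nrf2-/- 1 h replicate 1 these counts were 30 and 2, where 42% of genes passed, and without replicate 2 they were 32 and 1, where 28.8% did. The 4 genes with the smallest adjusted p at 1 h, *Gpt2* (2.37), *Ndrg1* (2.08), *Aldh18a1* (1.19) and *Asns* (1.81), were all higher in Nrf2-/- cells.

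SFN in isosmotic WT cells raised 8 of these 39 genes and lowered 1, with a median log2 fold change of 0.19, where 2.84% of all genes passed. *Slc7a11* (2.39), the amino acid transporter *Slc1a4* (0.84), *Herpud1* (0.88) and *Gpt2* (0.52) were among those higher, and *Stc2* (-1.02) was the lower one. *Slc7a11* stands on the Nrf2 target list too. Without the Nrf2-/- 1 h libraries, 18 were higher and 1 lower, where 14.5% of genes passed. After 1 h of stress in DMSO cells, *Slc38a2*, a neutral amino acid transporter, was the 1 gene that rose (1.18), and none fell, where 11.2% of all genes passed. After 6 h, 11 rose and 10 fell, near the 45.9% of all genes that passed, with a median of -0.01 against 0.048 for all genes. *Slc38a2* (2.60), *Ndrg1* (1.52), *Vegfa* (1.37) and the arginine transporter *Slc7a1* (1.19) had the smallest adjusted p among those that rose. The alanyl-tRNA synthetase *Aars* (-0.68), *Slc1a4* (-0.72), *Gpt2* (-0.61) and the lipoprotein receptor *Vldlr* (-0.69) had the smallest among those that fell.

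**Figure D5:**
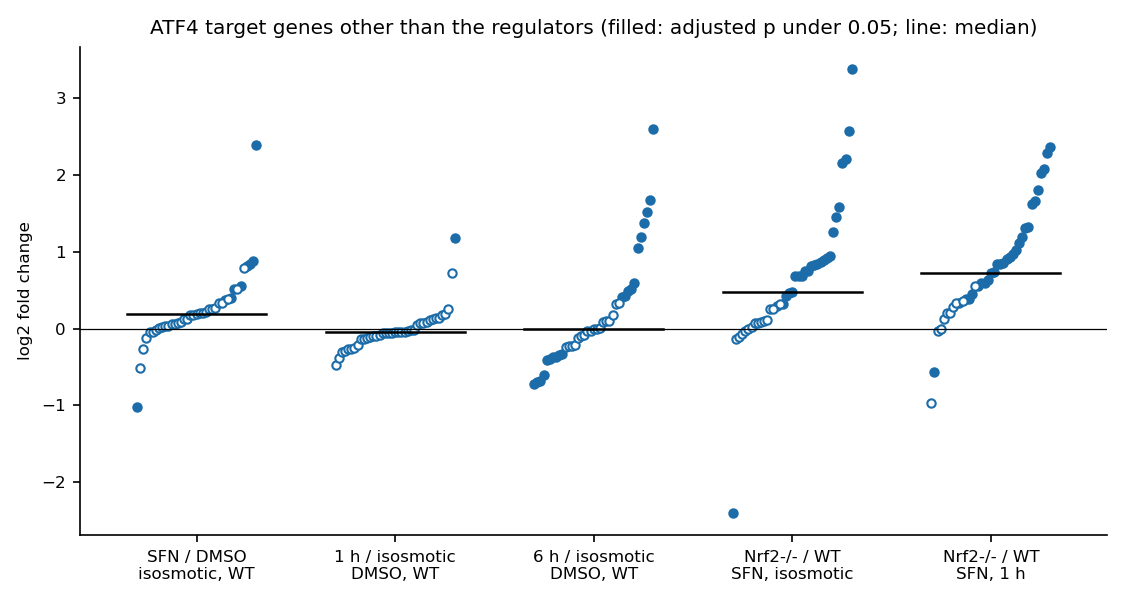
log2 fold changes of 39 genes listed by name as ATF4 targets, other than the regulators, in 5 comparisons. Each point is a gene in order of its value, filled where adjusted p was under 0.05, and the line is the median. The medians are 0.19, -0.05, -0.01, 0.48 and 0.72 from left to right.

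Upstream of ATF4, 20 genes of the eIF2 kinases, eIF2 itself, its exchange factor eIF2B and its phosphatases were read. None was called with SFN in WT cells, where 2.84% of all genes passed when isosmotic, 0.0923% after 1 h and 0.041% after 6 h. With 1 h of stress none was called either, where 11.2% of all genes passed in DMSO cells and 9.52% in SFN cells. After 6 h in DMSO cells, 2 rose and 6 fell, a share below the 45.9% of all genes that passed, and without the Nrf2-/- 1 h libraries 2 rose and 13 fell, where 56.7% passed. *Ppp1r15b*, the constitutive paralog of *Ppp1r15a*, rose (1.00), as did the adaptor *Nck1* (0.48). The eIF2B subunit *Eif2b3* (-1.16), *Impact* (-1.48), the kinase PKR *Eif2ak2* (-1.35) and the kinase GCN2 *Eif2ak4* (-0.64) fell. In isosmotic Nrf2-/- cells, 8 were higher and 3 lower than in WT cells, where 34.1% of all genes passed, among them *Eif2s3x* (0.92) and the heme-regulated kinase *Eif2ak1* (0.70) on the higher side and *Eif2b4* (-1.26) on the lower. The ATF6 and XBP1 branch of the unfolded protein response shares its trigger with the eIF2 kinase PERK. Of its 16 genes, 0 passed with SFN in isosmotic cells, where 2.84% of all genes passed. In this branch 5 rose and 2 fell after 6 h in DMSO cells, and 4 were higher and 1 lower in isosmotic Nrf2-/- cells. The shares at 6 h and between genotypes were near those over all genes, 45.9% and 34.1%. In Nrf2-/- cells 7 were higher and 2 lower without the Nrf2-/- 1 h libraries, where 46.4% of genes passed.

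The genes whose log2 CPM followed each regulator most closely over the 16 libraries are given as a description, since these libraries share conditions and depth. *Atf5* was followed by *Slc6a9* (Pearson r = 0.974), *Mthfd2* (0.964) and *Hspd1* (0.959), of which the first 2 stand on the ATF4 list. *Atf4* was followed by *Slc3a2* (0.925), *Sqstm1* (0.917) and *Fam98c* (0.912), and *Ddit3* by *Psph* (0.938), with *Slc3a2* and *Psph* also on that list. For *Chac1* the closest were *Fer1l5* (0.926), *Hspb8* (0.924) and *Slc7a11* (0.912), and for *Sesn2* the zinc transporter *Slc39a14* (0.929). *Trib3* was most like *Golim4* (0.987), *Gdf15* like *Id3* (0.953), *Ppp1r15a* like *Iqgap2* (0.948) and *Ddit4* like *Marchf9* (0.974). Among the regulators, *Atf4* and *Atf5* had r = 0.98 over the 12 WT libraries and 0.37 over all 16, and *Gdf15* and *Ddit4* had r = -0.95 over the WT libraries.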

How the data were processed

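Per the methods and labels, RNA was extracted with TRIzol, sequenced on a NovaSeq and aligned to mm10. The methods name Hisat2 and the submitters' processing notes Bowtie2, so the aligner is uncertain. The authors deposited 1 file of gene counts per library, made with featureCounts and not normalized. The strand setting and annotation are not given in the sources used here. Lines without a gene symbol (0 to 3 per file) were left out, and symbols were matched to GENCODE M21 (96.3% of 55367, and all 10 regulators). Ddit3 has 2 gene IDs under 1 symbol. The files of isosmotic WT cells given SFN are numbered 2 and 3 and their titles 1 and 2, and replicates are numbered here by title.

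Counts from all 16 libraries were fitted together, with 1 coefficient per group, by the edgeR 4.0.16 quasi-likelihood test (R 4.3.3, TMM, robust, filterByExpr with a minimum count of 10, 19509 genes). Calls were made at a Benjamini-Hochberg adjusted p under 0.05 over all genes, and ± beside a log2 fold change is its standard error. An exact two-sided permutation test of 2 against 2 libraries cannot go below p = 0.333. The scripts were tested on simulated data. DESeq2 1.42.0, other scalings, filters and sample sets, a replicate block and leaving out each library were alternatives. Counts of the other gene lists without the Nrf2-/- 1 h libraries were added after seeing the data. The regulators and gene lists were chosen with earlier results of these data known. Named list genes are the up to 4 with the smallest adjusted p in each direction, and like genes the 3 with the highest Pearson r. With total counts of 34484296 to 50774875, counting intervals cover counting error only, and this only where counts are independent.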

Additional observations from a re-analysis of the deposited data

Results flagged for a closer look

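For 3 results the effect of SFN differed between conditions by a test of the difference itself (edgeR quasi-likelihood test). For *Gdf15*, the log2 effect of SFN was 1.57 higher after 1 h of stress than in isosmotic cells, with SFN libraries below the DMSO libraries before stress and above them after 1 h. For *Chac1* the effect after 6 h minus that in isosmotic cells was -1.82, and for *Sesn2* it was -1.13. Both genes were raised by SFN in isosmotic cells and were not called after 6 h. Groups held 2 libraries, so no library was tested for lying apart from its group.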

How the results depend on the processing

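The 46 calls on the regulators, 1 of them on *Fgf21*, had the same direction under all 587 alternative values run for them, and 535 of these also passed. The alternatives refit the same counts, so a shared direction is not independent support. The *Fgf21* call carries no weight, as that gene entered the fit only through the Nrf2-/- libraries. The number of regulators called moved by over 1.5 times in these cases, and the share of all genes called is given in brackets. SFN in isosmotic cells gave 4 (2.84%). It gave 8 without a filter (3.16%), with only the libraries compared (7.06%) or without the Nrf2-/- 1 h libraries (14.5%). With the 12 WT libraries it gave 9 (15.2%), and without any 1 of its 4 libraries fewer than 4. SFN after 1 h gave 0 (0.0923%), against 3 without a filter (0.12%) and 2 by DESeq2 (0.261%). It gave 5 with the libraries compared (4.95%) or the WT libraries (0.533%), and 4 without the Nrf2-/- 1 h libraries (0.479%). In DMSO cells 1 h of stress gave 1 (11.2%), against 2 by DESeq2 (14.3%). It gave 3 without a filter (7.93%), with the libraries compared (21.7%), with the WT libraries (22.9%) or without the Nrf2-/- 1 h libraries (22.1%). The call was lost in some fits leaving out a library. In SFN cells 1 h of stress gave 2 (9.52%), against 4 under those 4 settings (6.84%, 15.9%, 18.3% and 17.5% in that order). Some fits leaving out a library gave fewer. Between 6 h and 1 h in SFN cells it was 4 (42.6%), against 7 with the libraries compared (63.3%). In Nrf2-/- cells 1 h of stress gave 0 (7.17%), against 2 without a filter (6.09%) and more without either Nrf2-/- 1 h library. There *Atf5* was -0.37 without replicate 1 and 0.51 without replicate 2, and *Ddit4* -0.82 and 0.46, against 0.14 and -0.04 with both libraries. Between genotypes at 1 h it was 7 with *Fgf21* left out (31.5%), against 3 with the libraries compared (10.1%). The difference in SFN effect at 1 h gave 1 (0.559%), against 0 with total counts (0.446%), 2 without a filter (0.735%) and 4 without the Nrf2-/- 1 h libraries (3.03%). It gave 3 by DESeq2 (1.42%), with the libraries compared (2.23%) or the WT libraries (3.09%). The call was lost leaving out any 1 of its 8 libraries. At 6 h that difference gave 2 (0.759%), against 5 with the WT libraries (4.24%) or without the Nrf2-/- 1 h libraries (3.96%). Some fits leaving out a library gave fewer than 2. The genotype difference in the 1 h effect gave 0 (0.123%), against 1 without a filter (0.458%) and more without either Nrf2-/- 1 h library. Why these counts moved was not tested.

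Replicate numbers did not pair the libraries: 1 of 28 correlations of same-numbered deviations was above 0.1 (-0.0794 to 0.123). With a replicate block, *Gdf15* lost its call for SFN in isosmotic cells (adjusted p = 0.0676) and for the difference at 1 h (0.0561). This left 0 regulators called for that difference, where 0.425% of genes passed. Pairs of libraries limit the precision, and where a group has 1 library left, it is assumed to vary like the others.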

Other observations

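Partners and relatives of the regulators were read as descriptions. Of 10 partners of ATF4 and other factors of the response, SFN in isosmotic WT cells lowered *Junb* (-1.73), *Atf3* (-1.49) and *Fos* (-1.36) and raised none, where 2.84% of all genes passed. Without the Nrf2-/- 1 h libraries 3 were lower and 3 higher, where 14.5% did. After 6 h of stress in DMSO cells, 5 rose and none fell, near the 45.9% of all genes that passed, among them *Nupr1* (4.99), a stress cofactor, and *Cebpa* (3.05). Without those libraries 5 rose and 3 fell, where 56.7% passed. Isosmotic Nrf2-/- cells had higher *Atf3* (1.32) and *Cebpg* (0.91) and lower *Cebpa* (-7.01), *Cebpd* (-1.19) and *Cebpb* (-0.76) than WT cells, where 34.1% of all genes passed.

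Of 6 genes linked to CHOP and cell death, SFN in isosmotic cells lowered 3, *Pmaip1* (-0.72), *Bbc3* (-1.27) and *Bcl2l11* (-0.49), where 2.84% of all genes passed. Without the Nrf2-/- 1 h libraries 3 were lower and 2 higher, where 14.5% did. After 6 h in DMSO cells, where 45.9% of all genes passed, *Bcl2l11* (1.97) and *Pmaip1* (0.68) rose and *Bcl2* (-1.25) fell. Among 8 tested paralogs of the regulators, *Trib1* was lowered by SFN in isosmotic cells (-1.62), where 2.84% of all genes passed. After 6 h in DMSO cells *Ddit4l* (2.42), *Trib2* (2.56) and *Ppp1r15b* (1.00) rose while *Chac2* (-1.25) fell, a share near the 45.9% of all genes.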
